A study of Rattus norvegicus with 10 samples.

Results

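Hepcidin, the liver's iron hormone, and 9 other genes of iron handling were followed in the livers of 10 rats. The genes were Hamp, Tfrc, Slc40a1, Fth1, Ftl1, Tf, Cp, Hpx, Slc39a14 and Bmp6, and their probes were found through the sequence accession that each array probe carries. They are 10 of 13837 genes that could be named on the array, and they account for 22 of its 41012 probes. Of these, 21 probes of 9 genes passed the filter on dim probes, which asked for a signal well above background throughout at least 1 group. The 10 genes were selected on measured values of these same arrays, so their values are given as a description, with no test. The record of the choice does not say which signals or differences were used.

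Male Sprague Dawley rats were injected once under the skin with 3.5 mg/kg of sulfur mustard (SM), an alkylating vesicant, in propylene glycol, which is 0.7 of the LD50. The 3 control rats received the same volume of the solvent. The 4 SM rats received SM alone, and the 3 SM + MSTF rats also received MSTF, which combines salvianolic acids with total flavonoids, by stomach tube at 120 mg/kg 1 h after SM. The livers were collected at 24 h, and each rat's RNA was hybridized to a one-colour Agilent Whole Rat Genome array of its own. No group received MSTF without SM, so SM + MSTF differs from control by both agents.

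The arrays were of similar quality. Between 51.9% and 61.4% of probes were well above background, no spot was saturated, and arrays correlated at 0.977 to 0.991 within groups and 0.969 to 0.988 between groups, across probes. All 8 hepatocyte markers were well above background on all 10 arrays, so the liver label holds. The 3 controls and SM + MSTF replicate 3 lay on slide 1, the 4 SM arrays on slide 2, and SM + MSTF replicates 1 and 2 on slide 3. An effect of SM and one of slide 2 cannot be told apart. No slide held both SM and SM + MSTF arrays, so treatment and slide cannot be told apart in that comparison either. Levels below are log2 signals after quantile normalization, differences are on the log2 scale with the standard error (SE) of the limma fit, and levels of different probes are not comparable with each other.

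Hepcidin is a small peptide that hepatocytes secrete into plasma. It binds ferroportin, the only known cellular iron exporter, and causes its breakdown, so that iron stays inside gut cells, macrophages and hepatocytes. The Hamp gene is switched on by bone morphogenetic proteins, made mainly by the sinusoidal endothelium and read through SMAD factors, and by interleukin 6, read through STAT3. Iron regulatory proteins act on several other iron genes after transcription: when iron is scarce inside the cell they protect transferrin receptor mRNA and hold back ferritin translation.

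The stretch of DNA just before the Hamp start is shown because both of these signals are known to act there. It covers the 250 bases upstream of the start in the RefSeq assembly GRCr8, at chr1:95300272-95300521 on the minus strand. It is the reference sequence and was not read from these rats. Capitals mark 2 matches, to GGCGCC, the core of a bone morphogenetic protein response element, and to TTCNNNGAA, the form of a STAT site.

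Hamp: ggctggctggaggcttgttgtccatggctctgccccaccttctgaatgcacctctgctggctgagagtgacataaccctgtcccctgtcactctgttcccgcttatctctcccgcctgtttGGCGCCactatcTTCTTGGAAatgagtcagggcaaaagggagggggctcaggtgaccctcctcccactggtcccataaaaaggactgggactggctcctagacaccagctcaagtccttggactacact

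GGCGCC lies 129 to 124 bases before the start, and TTCTTGGAA, the match to the STAT form, 117 to 109 bases before it. The 2 matches do not overlap. Both forms read the same on either strand, so a match counts once. Among 33469 rat promoter windows of 250 bases, 8.69% hold GGCGCC, 7.67% hold TTCNNNGAA and 0.379% (127 windows) hold both. Of the 10 genes, 7 have an entry in the promoter table. The Tfrc window holds GGCGCC, and the windows of Slc40a1, Tf, Cp, Hpx and Bmp6 hold neither. A match is a description of the letters and shows no binding.

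Hamp was measured by 1 probe, and its level varied most among the 9 measured genes. On the control arrays its log2 signal was 10.82, 14.12 and 14.91. On the SM arrays it was 14.93, 9.91, 12.32 and 12.07. On the SM + MSTF arrays it was 16.17, 16.45 and 16.51. The control and SM arrays overlapped almost completely, whereas each SM + MSTF array was above every control and every SM array. Because the tissue was bulk liver, more RNA per hepatocyte and more contributing cells cannot be told apart.

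The mean Hamp level was 13.28 ± 2.17 (SD, n = 3) in the controls. It was 12.31 ± 2.05 (SD, n = 4) after SM alone and 16.38 ± 0.18 (SD, n = 3) after SM with MSTF. SM differed from control by -0.98 (SE 1.16), a mean 1.97-fold lower, which lies inside the spread of both groups. SM + MSTF was 3.09 (SE 1.24) above control, or 8.54-fold. It was 4.07 (SE 1.16) above SM, or 16.8-fold. Neither difference was called in the fit across all probes, in which a call needed an adjusted p under 0.05 (limma, Benjamini-Hochberg) and a change of at least 1.5-fold.

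The order of the groups for Hamp was SM, control, SM + MSTF, of which SM and control did not differ beyond their spread, while SM + MSTF lay above both without overlap. Leaving out control replicate 1, the low control, moved the difference between SM and control to -2.21, and leaving out control replicate 3 moved it to -0.16. The differences of SM + MSTF from control and from SM stayed between 1.86 and 3.91 and between 3.27 and 4.94 without each array in turn. On slide 1 alone, the 1 SM + MSTF array, replicate 3 at 16.51, was 3.23 above the mean of the 3 controls, which themselves ranged over 4.09, from 10.82 to 14.91.

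The spread among rats given no MSTF was itself wide. Over all 10 arrays Hamp ranged 97.0-fold, from SM replicate 2 to SM + MSTF replicate 3, and 11 of the 22991 probes tested had a wider range. The range was 17.0-fold among the 3 controls, 32.3-fold among the 4 SM rats and 1.27-fold among the 3 SM + MSTF rats. The pooled within-group SD of Hamp was 1.78, against a median of 0.20 over all tested probes. Before normalization the probe's intensity ran from 1054 to 93549, and its rank among probes from 5587 to 174, so the spread was present in the scanner values. The per-array plot shows Hamp beside the other genes.

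**Figure D1:**
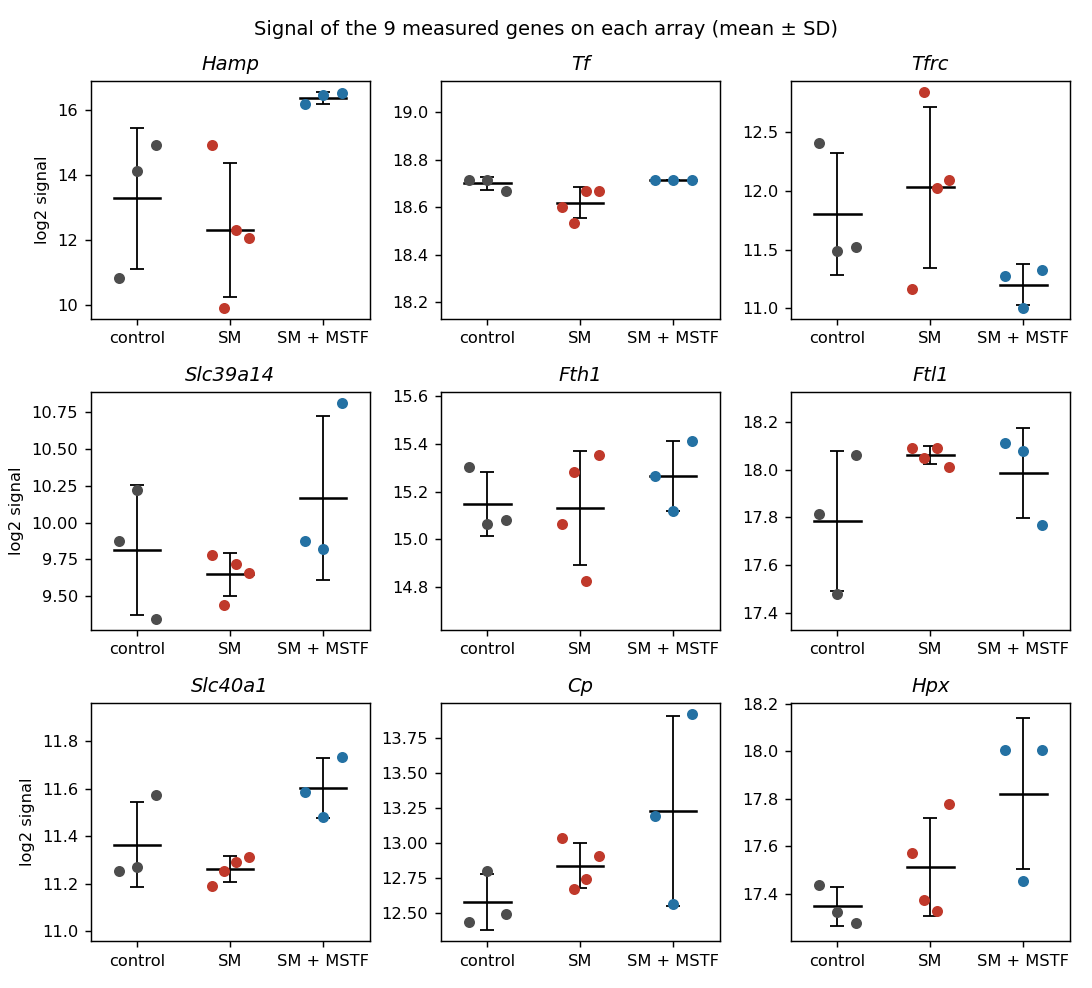
Log2 signal (vertical axis) of the brightest tested probe of each of the 9 measured genes on each of the 10 arrays, by group; points are rats, bars the mean ± SD, and the vertical scales differ between genes. Hamp lies at 16.17 to 16.51 in SM + MSTF and between 9.91 and 14.93 in the other rats, and Tfrc is highest (12.85) in the SM rat with the lowest Hamp.

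Bmp6, the ligand that reports iron stores to the hepatocyte, was not well above background on any of the 10 arrays with its 1 probe. No level or difference is therefore given for it. Among the other genes of the bone morphogenetic protein and SMAD pathway, Bmp2, a second ligand of the sinusoidal endothelium, had the largest fitted change in SM, at 0.38 (SE 0.16) with an adjusted p of 0.28 (limma). Its level was 10.15 to 10.59 in control and 10.64 to 10.94 in SM, without overlap. In SM + MSTF it was 10.19, 10.45 and 10.79, between the lowest and highest values of the other rats. Of 8 markers of sinusoidal endothelial cells, 5 were measured. Their mean was 10.84 to 10.90 in control, 10.70 to 10.94 in SM and 10.62 to 11.03 in SM + MSTF. No marker was called between any pair of groups. Over all probes 2.40% were called between SM and control, 0% between SM + MSTF and control, and 1.26% between SM + MSTF and SM. The part of sinusoidal endothelial cells in the Bmp2 level was not tested.

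The list of hepcidin control by bone morphogenetic proteins and SMADs had 20 entries, of which 14 were tested. It held receptors, co-receptors such as Hjv and Hfe, the iron sensor Tfr2 and feedback inhibitors such as Smad6 and Smad7. None was called in any of the 3 comparisons (SM with control, SM + MSTF with control, SM + MSTF with SM). Over all probes 2.40%, 0% and 1.26% were called in that order. At an unadjusted p under 0.05 (limma) the counts were 1, 1 and 2 genes of 14 in that order, where 16.4%, 9.54% and 15.9% of all probes reached that level, and by the methods' t-test with the fold minimum they were 0, 0 and 0. The largest differences were Tfr2 at 0.48 (SE 0.15) in SM + MSTF versus control and Smad7, a target gene that damps SMAD signalling, at 0.43 (SE 0.17) in SM + MSTF versus SM. Both were singled out after their values were seen, and neither passed the test.

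The list of hepcidin control by interleukin 6 and STAT3 had 6 entries, of which 5 were tested. Il6 itself was not well above background throughout any group. None of the 5 was called in any of the 3 comparisons, where 2.40%, 0% and 1.26% of all probes were called. At an unadjusted p under 0.05 (limma) there were 0, where 16.4%, 9.54% and 15.9% of all probes reached that level. Stat3, the factor that carries the signal to the Hamp promoter, had the largest fitted change in SM, at 0.24 (SE 0.34) with an adjusted p of 0.78. Its level was 10.30, 10.98 and 10.51 in control, 10.98, 10.53, 10.61 and 11.23 in SM, and 10.80, 10.59 and 12.04 in SM + MSTF.

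SM + MSTF replicate 3 was the highest array for 4 of the 5 tested genes of this list. It had the highest level of the 10 arrays for Stat3 (12.04), for the receptor gene Il6r (10.99, against 9.78 to 10.04 on the other 9), for the shared receptor subunit Il6st (14.87, against 13.84 to 14.28) and for the feedback inhibitor Socs3 (6.24, against 5.13 to 5.96). SM + MSTF replicates 1 and 2 had low to middle levels of these 4 genes and levels of Hamp within 0.34 of replicate 3. The fifth gene, Inhbb, which encodes a subunit of activin B, was 12.19 in SM + MSTF replicate 3, below control replicate 1 (12.49) and SM replicates 3 and 4 (12.38 and 12.34). The mean over the 5 tested genes was 10.42 to 10.55 in control, 10.32 to 10.62 in SM and 10.26, 10.33 and 11.27 in SM + MSTF. Pearson's r between this mean and Hamp was 0.346 over the 10 rats and 0.730 over the 7 control and SM rats. The part of interleukin 6 and STAT3 signalling in the Hamp level was not tested.

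Tfrc encodes transferrin receptor 1, through which cells take up iron bound to transferrin. Its brightest probe read 12.41, 11.49 and 11.52 in control. It read 11.17, 12.85, 12.03 and 12.10 in SM. In SM + MSTF it read 11.27, 11.00 and 11.33. On this probe the SM + MSTF arrays were below all 3 controls and below 3 of the 4 SM arrays, with SM replicate 1 the exception. On the other Tfrc probes SM + MSTF overlapped with control and with SM.

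Tfrc in SM + MSTF differed from control by -0.60 (SE 0.38) and from SM by -0.83 (SE 0.36), and SM differed from control by 0.23 (SE 0.36). The other 2 probes of Tfrc gave -0.47 and -0.70 against control and -0.74 and -0.92 against SM, so all 3 probes had the same sign in each comparison. The difference between SM and control changed sign, to -0.04, without SM replicate 2, the array with the highest Tfrc and the lowest Hamp.

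Rat by rat, Tfrc was high where Hamp was low. The 2 arrays with the lowest Hamp, SM replicate 2 and control replicate 1, had the 2 highest Tfrc levels, 12.85 and 12.41. SM replicate 1, the SM rat with the highest Hamp, had the lowest Tfrc outside SM + MSTF. Pearson's r between the 2 genes was -0.962 and Spearman's rho -0.903 over the 10 rats. With the group means removed r was -0.965. In the 7 control and SM rats alone r was -0.979 and rho -0.964. Without SM replicate 2 and control replicate 1, the arrays farthest from the median of Hamp, r was -0.916.

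The other 2 Tfrc probes had r of -0.907 and -0.940 with Hamp. Among 22985 other tested probes, the brightest Tfrc probe had the most negative r with Hamp, and the other 2 ranked 8th and 4th from that end. Over 3 other scalings and without each array in turn, r of the brightest probe lay between -0.975 and -0.940. Correlations are given with no p, since the genes were chosen with these values within reach, and the points share their normalization. The Tfrc probes measure 1 transcript and are not independent of each other.

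Slc11a2 encodes DMT1, which moves iron out of endosomes after transferrin uptake. It was singled out after its values were seen, because it had the second most negative r with Hamp, -0.957 (rho -0.976). Its level was 9.60, 9.36 and 9.32 in control, 9.35, 9.69, 9.49 and 9.45 in SM, and 9.29, 9.14 and 9.07 in SM + MSTF. The SM + MSTF arrays lay below all control and SM arrays. The range of Slc11a2 was narrow, and its difference of -0.33 (SE 0.11) between SM + MSTF and SM had an adjusted p of 0.22 (limma). In the 7 control and SM rats its r with Hamp was -0.974. Strongly negative r was not limited to iron genes. Slc13a2 (r -0.915) and Armc5 (r -0.913), on no iron list here, ranked 6th and 7th from the most negative end. They too were picked after their values were seen. The scatter plots set Tfrc and Slc11a2 against Hamp.

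**Figure D2:**
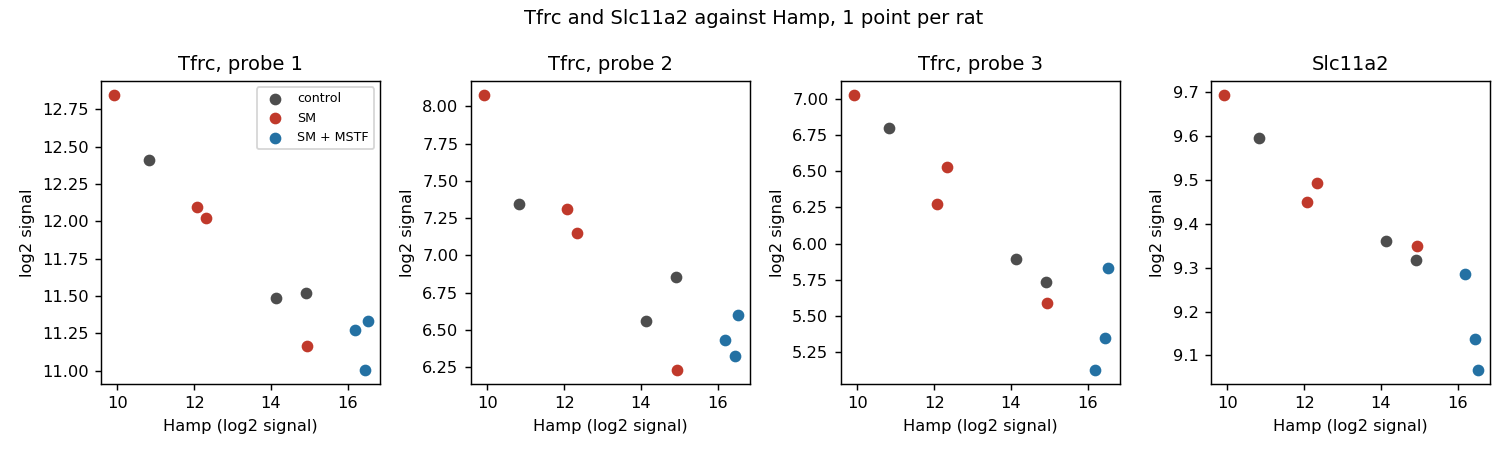
Log2 signal of the 3 Tfrc probes and of Slc11a2 (vertical axes) against log2 signal of Hamp (horizontal axis), 1 point per rat, coloured by group. Levels fall from left to right in each panel, with r of -0.962, -0.907, -0.940 and -0.957 over the 10 rats.

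The 5 named genes whose pattern was most like that of Hamp over the 10 arrays were Pik3ap1 (r 0.931), Polr1b (0.903), Rbm3 (0.893), Mterf1 (0.892) and Nmd3 (0.890). Pik3ap1 encodes an adaptor of phosphoinositide 3-kinase, and Polr1b a subunit of RNA polymerase I. Their own ranges were small beside that of Hamp: Pik3ap1 ran from 6.47 in control replicate 1 to 7.37 in SM + MSTF replicate 3.

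Tf encodes transferrin, the plasma carrier of iron. Its level was 18.67 to 18.72 in control, 18.54 to 18.67 in SM and 18.72 on all 3 SM + MSTF arrays. It differed from control by -0.08 (SE 0.08) in SM and by 0.02 (SE 0.08) in SM + MSTF. The probe was the brightest of all on 5 of the 10 arrays and among the 3 brightest on 9. Quantile normalization gives the same value to the brightest probe of each array, so it cannot show a change there. Before normalization its intensity was 382006 to 450360. The difference between SM + MSTF and SM, 0.10, became -0.0073 after normexp background correction.

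Slc39a14 encodes ZIP14, which takes up iron that is not bound to transferrin. Its brightest probe read 9.87, 10.22 and 9.35 in control, 9.78, 9.44, 9.72 and 9.66 in SM, and 9.87, 9.82 and 10.81 in SM + MSTF. SM + MSTF replicate 3 was the highest array, and the difference from control was 0.36 (SE 0.28) with it and 0.03 without it. The other 3 probes gave -0.09 to 0.26 in SM + MSTF versus control, so the probes differed in sign. Against SM all 4 probes gave positive differences, of 0.07 to 0.52.

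Iron inside the cell is stored in ferritin, a shell of heavy (Fth1) and light (Ftl1) chains. The brighter Fth1 probe was 15.06 to 15.30 in control, 14.82 to 15.35 in SM and 15.12 to 15.41 in SM + MSTF, with all groups overlapping. Its differences were -0.02 (SE 0.14) in SM and 0.12 (SE 0.15) in SM + MSTF versus control. The second probe gave -0.34 (SE 0.22) and -0.11 (SE 0.23). The brightest of 4 Ftl1 probes gave 0.28 (SE 0.14) and 0.20 (SE 0.15), while the other 3 gave -0.03 to 0.07 and -0.09 to -0.06. Ferritin genes have many processed copies in mammalian genomes, so probes of these 2 genes are uncertain where a copy shares their sequence.

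Slc40a1 encodes ferroportin, the exporter that hepcidin acts on. Its brighter probe read 11.25, 11.27 and 11.57 in control, 11.19, 11.25, 11.29 and 11.31 in SM, and 11.59, 11.48 and 11.73 in SM + MSTF. The SM + MSTF arrays were above all SM arrays and overlapped with control replicate 3. The difference was 0.34 (SE 0.11), or 1.27-fold, against SM and 0.24 (SE 0.11) against control. The second probe gave 0.39 (SE 0.11) and 0.46 (SE 0.11), with its SM + MSTF arrays above all other arrays. SM differed from control by -0.10 (SE 0.11) on the brighter probe and by 0.07 (SE 0.11) on the other.

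Kupffer cells, the liver's macrophages, also make much ferroportin. Of 10 Kupffer cell and macrophage markers, 9 had a probe, and all 9 were well above background on all 10 arrays. Their mean level was 11.82 to 12.05 in control, 11.29 to 12.14 in SM and 12.13 to 12.15 in SM + MSTF. Averaged over arrays it was 11.90 for control rats, 11.70 after SM alone and 12.14 after SM with MSTF. No marker was called in any of the 3 comparisons, where 2.40%, 0% and 1.26% of all probes were called. Only Marco lay higher after SM with MSTF than after SM alone without overlap. Its difference was 0.96 (SE 0.27), with an adjusted p of 0.15 (limma). Marco was picked after its values were seen. The mean of the list had r of 0.659 with Hamp over the 10 arrays and 0.403 over the 7 control and SM arrays. The part of these cells in the Slc40a1 and Hamp levels was not tested.

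Cp encodes ceruloplasmin, a copper ferroxidase that loads exported iron onto transferrin. Its brightest probe read 12.44, 12.80 and 12.50 in control, 13.03, 12.68, 12.74 and 12.91 in SM, and 13.19, 12.57 and 13.92 in SM + MSTF. SM + MSTF replicate 3 was the highest array and SM + MSTF replicate 2 was among the controls. The difference from control was 0.65 (SE 0.28) in SM + MSTF and 0.30 without replicate 3. In SM the 3 probes disagreed in sign, with 0.26 (SE 0.27) for the brightest and -0.04 and -0.37 for the others.

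Hpx encodes hemopexin, the plasma scavenger of free heme. It read 17.44, 17.32 and 17.28 in control, 17.57, 17.37, 17.33 and 17.78 in SM, and 18.00, 17.46 and 18.00 in SM + MSTF. Each SM + MSTF array was above the 3 controls, by a narrow margin for replicate 2, and the SM arrays overlapped with both groups. The difference was 0.47 (SE 0.17), or 1.39-fold, between SM + MSTF and control and 0.17 (SE 0.16) between SM and control. All differences are drawn together in the plot of the 21 probes.

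**Figure D3:**
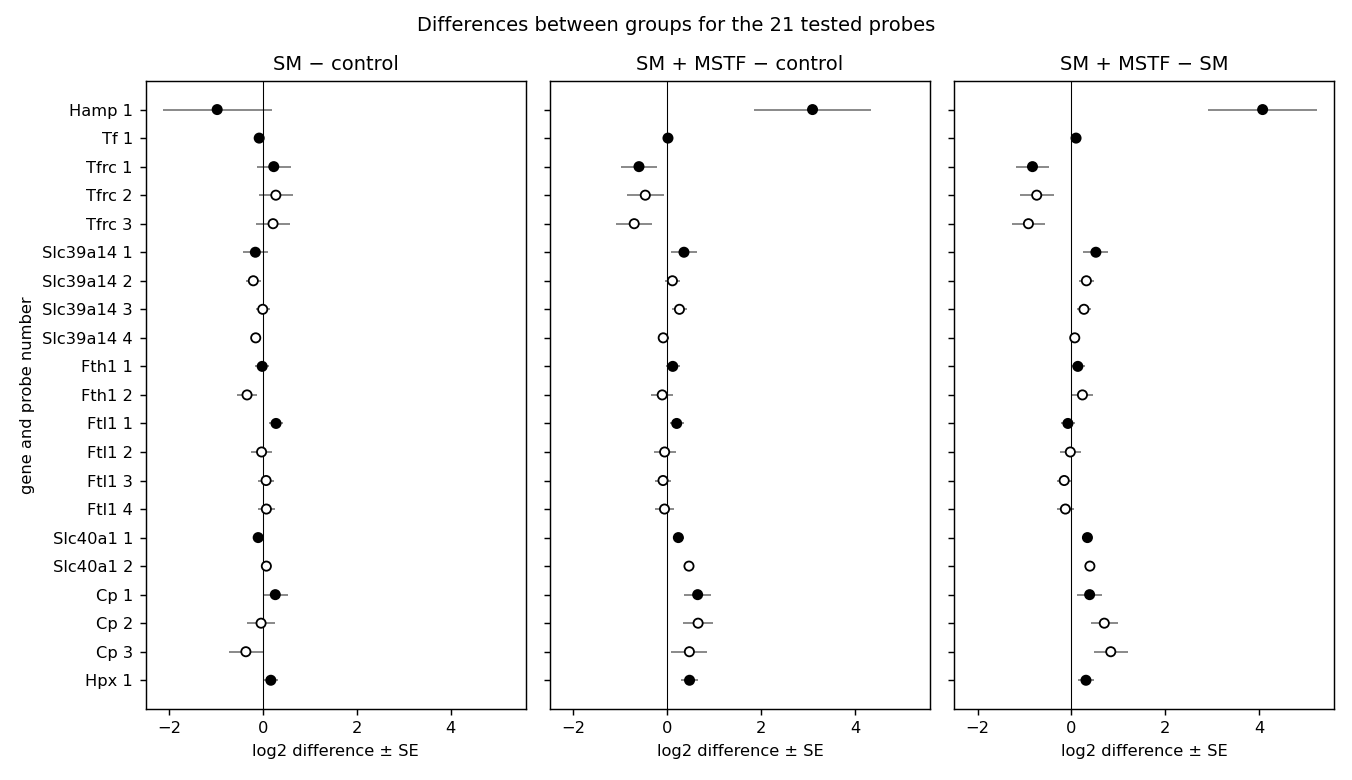
Log2 difference (horizontal axis, ± SE of the limma fit) of each of the 21 tested probes in the 3 comparisons; filled points are the brightest probe of each gene and open points its other probes. Hamp reaches 3.09 and 4.07 in the comparisons of SM + MSTF, the 3 Tfrc probes lie below 0 there, and between SM and control the probes lie between -0.37 and 0.28 apart from Hamp at -0.98.

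Over the genes as a group, 0 of the 9 tested were called in SM versus control, where 2.40% of all 22991 tested probes were called. For SM + MSTF against control it was 0 of 9 and 0% of all probes, and for SM + MSTF against SM 0 of 9 and 1.26%. Counted by arrays that do not overlap, 0 of 9 genes separated SM from control, where 18.0% of all probes did. Between SM + MSTF and control, Hamp and Hpx were higher and Tfrc lower without overlap, 3 of 9, where 15.4% of all probes separated, 8.03% as higher and 7.40% as lower. Between SM + MSTF and SM, Hamp, Tf, Slc39a14 and Slc40a1 were higher without overlap, 4 of 9, where 14.7% of all probes separated and 5.95% were higher. Each gene was counted by its brightest probe. The other Tfrc probes overlapped between SM + MSTF and control, and the other Slc39a14 probes between SM + MSTF and SM. Before normalization Tf overlapped too, at 439010 in SM replicate 4 and 431770 in SM + MSTF replicate 1. The genes were chosen with these arrays known, so nothing is read from these counts. The comparisons also share arrays: both that involve control use the same 3 rats.

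The median difference of the 9 genes was -0.02 between SM and control, 0.24 between SM + MSTF and control, and 0.31 between SM + MSTF and SM. The medians of all tested probes were 0.03, 0.0046 and -0.02. The typical precision of a probe was an SE of 0.149, 0.160 and 0.149 in these comparisons. The SE of Hamp was several times as wide, and those of Tf, Slc40a1 and the brighter Fth1 and Ftl1 probes were narrower than or close to the typical one.

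A wider list of 60 iron genes was drawn up by role, of which 51 had a probe and 48 were tested. None of the 48 was called in any of the 3 comparisons, where 2.40%, 0% and 1.26% of all probes were called. At an unadjusted p under 0.05 (limma) 4 were higher and 0 lower between SM and control, 6 higher and 1 lower between SM + MSTF and control, and 4 higher and 2 lower between SM + MSTF and SM. The share of all probes at that level was 16.4%, 9.54% and 15.9%. By the methods' t-test with its fold minimum, before adjustment, the counts were 0, 1 and 0. The list's medians were 0.06, 0.14 and 0.04.

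Among genes of iron uptake, reduction and transfer within the cell, 11 of 12 were tested. Ncoa4, the receptor that delivers ferritin to lysosomes for breakdown, had the largest fitted change in SM, at 0.44 (SE 0.11) with an adjusted p of 0.067 (limma). Its level was 9.84, 9.51 and 9.82 in control, 10.14, 10.08, 10.18 and 10.25 in SM, and 9.93, 9.94 and 10.11 in SM + MSTF. Both SM groups were above the 3 controls without overlap, and the change did not pass the test.

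Of the iron regulatory proteins, Aco1 and Ireb2 were tested. Ireb2, which binds iron-responsive elements in mRNA, had -0.36 (SE 0.17) in SM with an adjusted p of 0.33 (limma), and control replicate 1 was its highest array at 7.79. Aco1, the other iron regulatory protein, had 0.13 (SE 0.13) in SM, with a level of 12.94 to 13.19 in control and 13.07 to 13.39 in SM.

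Of 12 genes of heme synthesis, transport and breakdown, 11 were tested. Lrp1, the receptor that clears heme bound to hemopexin, had the largest fitted change in SM, at 0.43 (SE 0.17) with an adjusted p of 0.24 (limma). Its level was 10.26 to 10.53 in control, 10.44 to 11.07 in SM and 10.62 to 11.11 in SM + MSTF. Hmox1, the inducible heme oxygenase, was the 1 gene passing that unadjusted test. It read 9.62 to 9.88 in control, 9.97, 9.39, 9.77 and 11.46 in SM and 10.31 to 10.70 in SM + MSTF, with a difference of 0.79 (SE 0.43) from control and an adjusted p of 0.54 by the methods' t-test.

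Erythroid cells, which carry heme and much transferrin receptor, were followed by 5 measured markers of 7. Their mean level was 8.73 to 10.27 in control, 9.44 to 10.90 in SM and 9.55 to 10.51 in SM + MSTF. Averaged over arrays it was 9.51 for control rats, 10.27 after SM alone and 10.01 after SM with MSTF. No marker was called in any of the 3 comparisons, where 2.40%, 0% and 1.26% of all probes were called. Between SM and control, Ahsp at 1.04 (SE 0.44) and Slc4a1 at 0.93 (SE 0.37) had an unadjusted p under 0.05 (limma). Hbb, Alas2 and Epb42 did not, and arrays overlapped for every marker. The r of the list mean with Hamp was near 0, at -0.093. With the brightest Tfrc probe it had r of 0.122 over the 10 rats. SM replicate 2, with the highest Tfrc, had the second highest erythroid mean, 10.76, and control replicate 1, with the second highest Tfrc, the lowest, 8.73. The part of erythroid cells in the Tfrc level was not tested.

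Lcn2 encodes lipocalin 2, which binds bacterial siderophores and is made by hepatocytes in inflammation. It was 8.04, 8.91 and 7.54 in control, 9.50, 8.12, 7.47 and 12.41 in SM, and 14.46, 9.04 and 8.28 in SM + MSTF. SM replicate 4 and SM + MSTF replicate 1 stood high, and every other array was at 9.50 or below. Its difference was 1.21 (SE 1.52) in SM versus control, with an adjusted p of 0.75 (limma). The 2 rats high in Lcn2 differed in Hamp, at 12.07 and 16.17.

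Hamp, Cp and Hpx are also acute phase genes, so a list of 11 other acute phase genes was set beside them. All 11 were tested and 0 were called in any of the 3 comparisons, where 2.40%, 0% and 1.26% of all probes were called. At an unadjusted p under 0.05 there were 0, 2 and 3 (limma), all higher, where 16.4%, 9.54% and 15.9% of all probes reached that level. Orm1, encoding orosomucoid, had the largest fitted change in SM, at 0.62 (SE 0.58) with an adjusted p of 0.65. It was high in the same 2 rats as Lcn2, at 16.84 in SM replicate 4 and 17.93 in SM + MSTF replicate 1, against 15.02 to 15.97 in the others.

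The mean of the 11 acute phase genes was 16.24 to 16.32 in control, 16.17 to 16.65 in SM and 16.77, 16.27 and 16.79 in SM + MSTF replicates 1, 2 and 3. The 3 SM + MSTF rats had Hamp levels of 16.17, 16.45 and 16.51 in the same order. The list mean had r of 0.444 with Hamp over the 10 rats and 0.095 over the 7 control and SM rats. The part of an acute phase response in the Hamp level was not tested. The heat map sets these genes beside the iron genes, rat by rat.

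**Figure D4:**
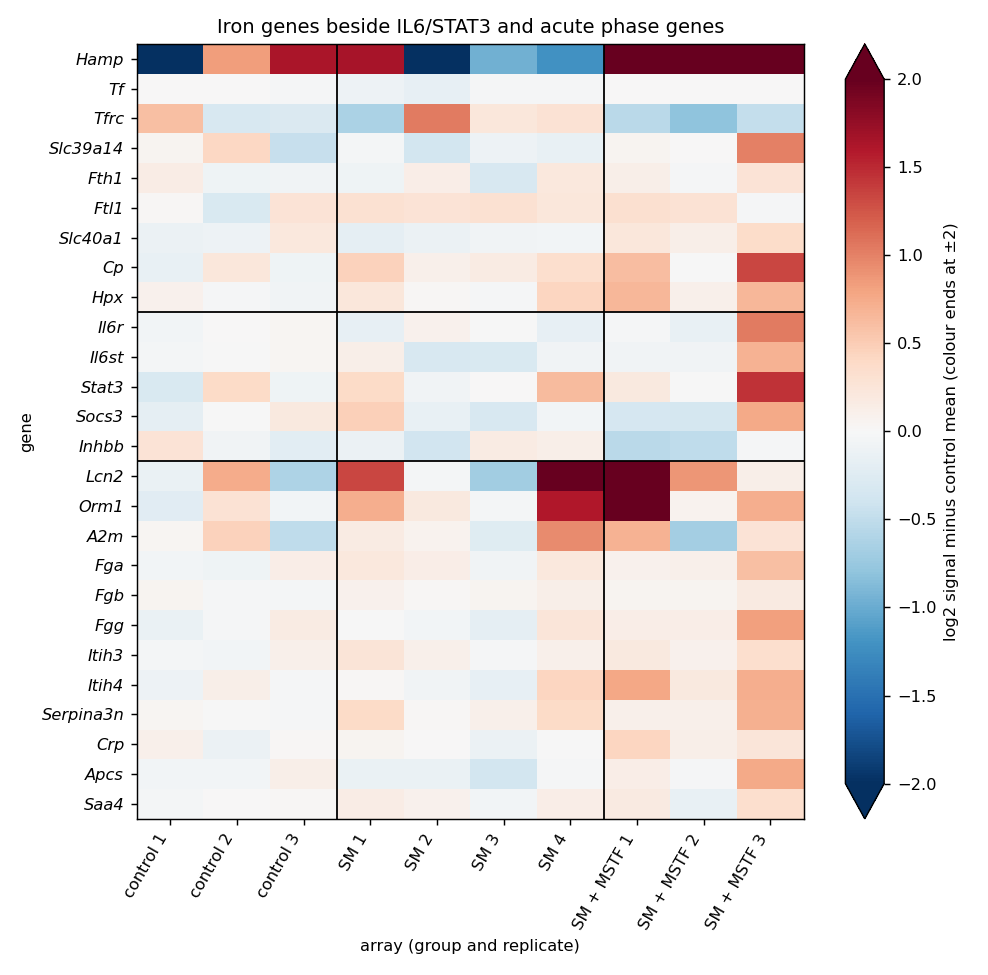
Log2 signal minus the control mean (colour, ends at ±2) of the 9 measured iron genes, 5 genes of the interleukin 6 and STAT3 list, Lcn2 and 11 acute phase genes (rows) on each array (columns). Hamp is high in all 3 SM + MSTF rats, Lcn2 and Orm1 are high in SM replicate 4 and SM + MSTF replicate 1, and Stat3, Il6r and Cp are high in SM + MSTF replicate 3.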

How the data were processed

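Liver RNA of 10 rats (3 control, 4 SM, 3 SM + MSTF, grouped by the sample labels) was measured on 10 arrays, 1 per rat. The authors scanned the arrays with Feature Extraction 10.7 (named in the submitters' processing notes), which gives a background-subtracted intensity per spot, and deposited log2 values after quantile normalization in GeneSpring, used here as an alternative. The intensities were the starting point. Control spots and non-uniform spots (0 to 4 per array) were left out, log2 intensities were quantile normalized, and the 43379 spots were averaged over 41012 probes. The filter kept the 22991 probes that Feature Extraction marked well above background throughout at least 1 group. The 3 comparisons came from 1 limma fit (R 4.3.3, limma 3.58.1; lmFit, eBayes) over 10 arrays, Benjamini-Hochberg adjusted over those probes and called at an adjusted p under 0.05 and at least 1.5-fold. The procedure was tested on simulated data. Arrays give no read depth: signal over background and the number of arrays set the precision.

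Probes were named through accessions in RefSeq GRCr8 (17512 of 41012 named). Probe coordinates are left out because the design used an earlier assembly. A gene's value is that of its tested probe with the highest mean signal. Members and lists were chosen with earlier results of these data known. Named genes were the members, list genes called in any comparison, the gene of each list with the largest fitted change in SM, and the 5 genes most like Hamp by Pearson's r; others are said to be picked after seeing values. Alternatives were 75th percentile scaling, the deposited values, normexp with an offset of 50, other filters, other groupings of arrays in the fit, replicate or slide as a block, the methods' t-test, the mean over a gene's probes, and each array left out. The correlations of Hamp with Tfrc and Slc11a2 under other scalings and without each array were added after the data were seen. The list of mitochondrial iron-sulfur assembly counts within the wider list, and its single genes are not reported here.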

Additional observations from a re-analysis of the deposited data

Results flagged for a closer look

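The 4 SM arrays of 80 probes of the iron and acute phase genes were examined for a single array far from the other 3, by the gap to its nearest neighbour as a share of the group's range. With Dixon's critical value as the limit, chance alone marks about 5% of groups, and 2 of the 80 probes were marked. Tfr2, an iron sensor of hepatocytes, was low in SM replicate 3, at 10.97 against 11.36 to 11.41 in the other SM rats, a share of 0.876. Smad1, which carries the signal of bone morphogenetic proteins, was low in SM replicate 2, at 10.60 against 11.14 to 11.17, a share of 0.942; this rat also had the lowest Hamp of the 10.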

How the results depend on the processing

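The Hamp differences kept their direction under the 3 other scalings, with slide as a random block and without each array in turn (the replicate block is given for counts only). They were -2.21 to -0.16 between SM and control, 1.86 to 3.91 between SM + MSTF and control, and 3.27 to 4.94 between SM + MSTF and SM. In the comparisons with SM no slide held both groups, so the random block cannot separate slide from group there. Of 27 differences of the 9 genes, 17 kept their sign in every alternative and 10 changed it in at least 1. With slide as a fixed block, only SM + MSTF versus control can be fitted, on slide 1. This sets 1 SM + MSTF array, replicate 3, against the 3 controls, so its values rest on 1 treated rat. Counts of calls from that fit are therefore left out, and the 0 calls of the main fit are not said to hold in it. The difference was then 3.23 for Hamp, 1.34 for Cp, 1.00 for Slc39a14, 0.37 for Slc40a1 and -0.02 for Ftl1. The counts over all probes moved far more. In SM versus control 552 probes were called, and 216 (38 higher, 178 lower, against 224 and 328) after normexp, 341 with no filter, 336 well above background on all 10 arrays, 85 with slide as a random block, and 1131 unadjusted and 321 adjusted by the methods' t-test. In SM + MSTF versus control 0 were called, with 2193 at an unadjusted p under 0.05 (limma) and 285 by the unadjusted t-test. In SM + MSTF versus SM 290 were called, and 58 after normexp, 140 well above background on all 10 arrays, 147 with only those 2 groups in the fit, 103 with slide as a random block, and 860 unadjusted and 13 adjusted by the t-test. Without each array in turn the counts were 61 (without control replicate 2) to 321, 0 to 249 (without SM + MSTF replicate 3) and 96 (without SM replicate 1) to 291. No iron gene was called in the runs that left out an array (0 to 0). In SM + MSTF versus control the unadjusted t-test took 1 wider-list gene (Hmox1), and between SM + MSTF and SM it took 1 of the 9 genes, Hamp. With slide as a fixed block the Il6r difference from control was 1.04, again from SM + MSTF replicate 3 alone. Whether a gene was called in that fit is not given. The causes were not tested. Same-numbered arrays did not deviate together (correlations -0.10 to 0.17; 3 of 9 arrays were closest to their own number), so the numbers do not pair the rats; with the replicate block 54 probes were called between SM and control and 64 between SM + MSTF and SM. Dim probes, such as those of Bmp6 and Il6, cannot show a level here.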
